A study of Homo sapiens with 22 samples.

Results

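The 2 peak lists described here map RNA polymerase II that carries a phosphate on serine 5 of the C-terminal repeat (Pol2S5p). The cells are 22Rv1, an established line of human prostate cancer, without (Ctrl) and with overexpression of the linker histone variant H1-10 (H1-10 OE). They are 2 of the 22 samples of a chromatin immunoprecipitation sequencing (ChIP-seq) series, chosen by their labels, with 1 library per group and therefore no replicate check. The Ctrl list held 35493 regions and the H1-10 OE list 40626. The labels give no dose, time or clone for the overexpression. Pol2S5p libraries of 22Rv1 with a control siRNA (siCtrl) and with an siRNA against E2F3 (siE2F3), an E2F family transcription factor, are used to show where a region was seen again. Their lists were longer, at 83650 and 83067 regions. Their sample labels name no overexpression, but every peak name in both carries the tag H1FXOE, H1FX being an older symbol of H1-10. The tag does not follow the labels throughout: 0 of the 40626 peak names of the Pol2S5p list labelled H1-10 OE carry it, while all 4296 of the E2F3 list with that label do. The siRNA lists are therefore read here as libraries that may also carry added H1-10, and not as untreated controls.

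The C-terminal repeat of the largest RNA polymerase II subunit is phosphorylated on serine 5 by the kinase of the general factor TFIIH as transcription starts. The mark is usually highest near promoters, where the polymerase pauses, and it thins out along the gene body while serine 2 phosphorylation builds up. Linker histones such as H1-10 bind the nucleosome at the entry and exit of its DNA. In luminal prostate cells FOXA1 and HOXB13 take part in the androgen response, whose targets include the kallikrein genes.

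Before any gene is compared, the markers of prostate luminal cells have to be set beside the labels. In Ctrl, 6 of 7 such markers (KLK2, KLK3, HOXB13, FOXA1, KRT8, KRT18 and TMPRSS2) had a region within 1 kb of the gene's start, and the exception, KLK3, had one further inside the gene. In the library labelled H1-10 OE, 4 of 7 had one, KLK2, KLK3 and TMPRSS2 having no region anywhere in the gene. The siCtrl and siE2F3 libraries also had 4 each. Summed over the 7 gene bodies, covered length was 15.5 kb in Ctrl, 1.57 kb in the library labelled H1-10 OE, 7.66 kb in siCtrl and 9.57 kb in siE2F3. Without the keratins KRT8 and KRT18, left out after their values were seen, the sums over 5 bodies were 13.5, 0.341, 1.77 and 2.22 kb. For these 7 markers Ctrl had the highest of the 4 sums. Over the wider list of 21 androgen response and prostate luminal genes described further on it did not: the sums were 61 kb in Ctrl, 12.8 kb in H1-10 OE, 90.3 kb in siCtrl and 80.7 kb in siE2F3. Most of both siRNA sums lay in NDRG1 (43.2 kb in siCtrl, 43.1 kb in siE2F3) and CAMKK2 (31.1 and 22.8 kb). In Ctrl these genes had 0.537 and 0.96 kb. Added H1-10 and any other difference between the cells of Ctrl and those of the 3 others cannot be told apart in this design. Promoters of fibroblast, endothelial and blood cell markers were nearly all empty in both lists, while those of neuroendocrine markers were occupied in part. Of 5 fibroblast markers TWIST1 alone had an occupied promoter, in both lists, and none of 3 endothelial markers had one. Of 6 blood cell markers HBB alone was met, in H1-10 OE, by 2 regions that did not reach its start. Of 5 neuroendocrine markers SYP was occupied in both lists, CHGA in Ctrl and INSM1 in H1-10 OE.

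Sharing between the lists was partial. Of the Ctrl regions, 14544 (41%, 95% Wilson interval 40.5 to 41.5, counting error only) overlapped no H1-10 OE region by even 1 bp. Of the H1-10 OE regions, 17405 (42.8%, interval 42.4 to 43.3) overlapped no Ctrl region. The Ctrl list covered 43.1 Mb with a median width of 765 bp, and H1-10 OE 39.1 Mb with a median of 641 bp. In Ctrl 946 regions were 5 kb or longer, against 395 in H1-10 OE, and the longest measured 99.1 and 22 kb. Regions of 5 kb or more covered 8.56 Mb in Ctrl against 2.9 Mb in H1-10 OE, and shorter ones 34.5 against 36.2 Mb. Where 1 region met exactly 1 region of the other list (15700 pairs), widths were close, with medians of 990 bp in Ctrl against 1052 bp in H1-10 OE, and the Ctrl region was the wider in 44.5%. The summits of these pairs lay a median of 86 bp apart. Read depth is unknown here, so list length may follow depth as well as chromatin.

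Regions of one list only were seen again at unequal rates in the siRNA libraries, whose peak names carry the H1FXOE tag. Since 1 Ctrl library enters every comparison, what the siRNA lists hold is given as a description. Of the regions found in H1-10 OE and not in Ctrl, 76.9% (76.3 to 77.5) overlapped a siCtrl region and 71.3% (70.6 to 71.9) a siE2F3 region. Of the regions found in Ctrl and not in H1-10 OE, 47.9% (47.1 to 48.7) and 43.1% (42.3 to 43.9) did. With the siRNA lists cut to their strongest peaks, as many as in H1-10 OE, the shares were 64.4% and 58% for H1-10 OE against 33.8% and 29.5% for Ctrl. Among the 1000 most significant regions of each kind the gap was wider: 92.3% (90.5 to 93.8) of those of H1-10 OE and 29.1% (26.4 to 32) of those of Ctrl were in siCtrl. Regions present in both Ctrl and H1-10 OE were in siCtrl in 98.1% of cases, counted over Ctrl regions.

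Gene positions need a statement of their source. No hg19 annotation was used: the hg19 spans of 278 genes were entered by hand from general knowledge, and 56 of these genes were added because a changed region lay there, after its values were seen. The other 222 belong to 11 gene lists. A promoter is the 1 kb to each side of the entered start, and a body runs from 1 kb past the start to the gene's end in genes of at least 3 kb. Alternative starts were not considered, and of overlapping genes the signal cannot be assigned. A body is called lower or higher where covered length differed by at least 2 kb and at least 2-fold after 0.5 kb was added to both.

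Over the 222 listed genes, promoters of 143 were occupied in both lists, of 13 in Ctrl only (5.86%), of 27 in H1-10 OE only (12.2%) and of 39 in neither. Bodies of 22 of 159 genes were lower in H1-10 OE (13.8%) and of 14 higher (8.81%). These shares describe the genes chosen, not the genome. In 50-kb windows across the genome, 913 of 17271 (5.29%) were lower in H1-10 OE by the same rule and 628 (3.64%) higher. The losses were the deeper: 73 windows lost 20 kb or more and 5 gained as much.

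**Figure D1:**
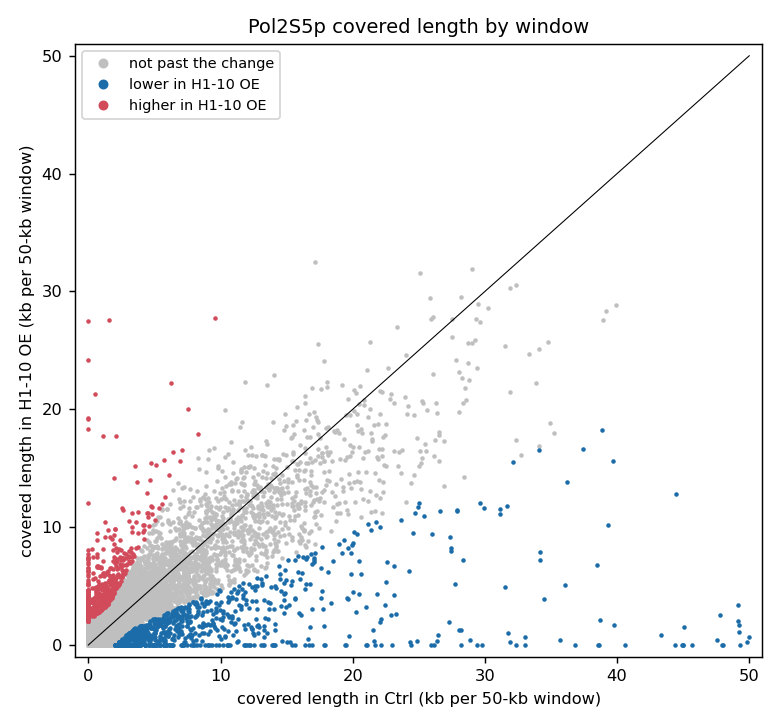
Covered length of Pol2S5p regions per 50-kb window in Ctrl (horizontal axis, kb) and in H1-10 OE (vertical axis, kb), 1 point per window with a region in either list; windows not reported here are left out, and the line marks equal values. Blue windows (lower in H1-10 OE) reach nearly 50 kb on the Ctrl axis at close to 0 in H1-10 OE, while red windows (higher) stay under 28 kb.

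To show starts with Pol2S5p in one list and not in the other, the 250 bases upstream of 6 starts that have a single entry in the RefSeq table (GRCh38.p14) are given first. The first 3 come from genes with Pol2S5p at the start in Ctrl and not in H1-10 OE: KLK2, a kallikrein protease and classical androgen target (chr19:50873189-50873438, plus strand); SRRM4, a splicing regulator of neural microexons (chr12:118981291-118981540, plus strand); and HGF, the ligand of the MET receptor (chr7:81770048-81770297, minus strand). The other 3 come from genes with the reverse pattern: KCTD12, an auxiliary subunit of GABA-B receptors (chr13:76886406-76886655, minus strand), and HOXD11 and HOXD13, posterior homeobox genes (chr2:176107030-176107279 and chr2:176092471-176092720, plus strand). Capitals mark the GC box letters GGGCGG, the letters CCAAT of the box of that name, the TATA box letters TATAAA and the E-box letters CACCTG, on either strand.
KLK2: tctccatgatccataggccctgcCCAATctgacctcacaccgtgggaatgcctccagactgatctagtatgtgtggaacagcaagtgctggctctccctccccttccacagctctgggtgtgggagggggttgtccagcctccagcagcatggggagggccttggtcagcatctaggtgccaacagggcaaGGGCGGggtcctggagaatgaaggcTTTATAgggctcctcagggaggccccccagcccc
SRRM4: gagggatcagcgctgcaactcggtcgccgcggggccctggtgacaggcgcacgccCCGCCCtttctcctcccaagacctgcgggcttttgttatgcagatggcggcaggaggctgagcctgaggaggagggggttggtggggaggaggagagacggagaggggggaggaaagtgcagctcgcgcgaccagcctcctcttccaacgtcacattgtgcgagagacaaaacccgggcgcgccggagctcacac
HGF: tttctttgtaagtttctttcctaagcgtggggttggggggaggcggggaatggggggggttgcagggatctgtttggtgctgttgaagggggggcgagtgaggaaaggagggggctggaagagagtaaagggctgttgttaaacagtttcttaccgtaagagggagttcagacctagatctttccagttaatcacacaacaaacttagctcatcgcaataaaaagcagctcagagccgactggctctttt
KCTD12: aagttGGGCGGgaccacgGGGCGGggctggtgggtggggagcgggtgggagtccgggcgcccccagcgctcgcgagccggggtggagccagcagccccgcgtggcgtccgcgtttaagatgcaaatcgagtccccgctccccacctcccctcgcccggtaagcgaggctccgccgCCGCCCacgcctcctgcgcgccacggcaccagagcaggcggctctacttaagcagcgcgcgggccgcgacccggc
HOXD11: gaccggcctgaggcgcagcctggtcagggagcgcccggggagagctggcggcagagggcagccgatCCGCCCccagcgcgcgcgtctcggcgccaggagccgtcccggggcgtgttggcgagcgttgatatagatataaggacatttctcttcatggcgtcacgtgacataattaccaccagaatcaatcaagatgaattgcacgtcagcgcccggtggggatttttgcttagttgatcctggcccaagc
HOXD13: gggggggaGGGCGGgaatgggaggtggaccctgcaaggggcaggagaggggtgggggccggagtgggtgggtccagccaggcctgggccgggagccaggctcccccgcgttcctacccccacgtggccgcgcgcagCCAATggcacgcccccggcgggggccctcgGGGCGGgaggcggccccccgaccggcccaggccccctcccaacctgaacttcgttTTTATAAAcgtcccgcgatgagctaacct
The KLK2 stretch held 1 GGGCGG, 1 CCAAT and 1 TATAAA, and SRRM4 1 GGGCGG. HGF held none of the 4 motifs. KCTD12 held 3 GGGCGG, HOXD11 1, and HOXD13 2 GGGCGG with 1 CCAAT and 2 TATAAA, the last 2 being overlapping matches, 1 on each strand. Of the 35116 promoters of the table, 42.6% held GGGCGG in the same 250 bases, 32% CCAAT, 10.7% TATAAA and 17.5% CACCTG, which none of the 6 held. GC content ran from 50% (HGF) to 75.6% (KCTD12). A CpG observed-to-expected ratio of 0.0854 set KLK2 apart from the other 5 stretches, at 0.447 to 0.976. A match is a string of letters and not a bound site.

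Some long genes carried Pol2S5p along much or all of the body in Ctrl and almost none of it in H1-10 OE. In Ctrl, regions that joined across gaps of up to 5 kb formed 71 domains of 20 kb or more that were over 50% covered and of whose covered length less than 25% was reached in H1-10 OE. The reverse filter gave 9 domains in H1-10 OE. Reported here are 69 of the Ctrl domains and 8 of those of H1-10 OE. The 69 Ctrl domains had a median length of 32.4 kb and a longest of 334 kb, and 34 of them were also under 25% in siCtrl, while in 19 siCtrl reached at least 50% of the Ctrl value. All 8 of H1-10 OE reached at least 50% of their covered length in siCtrl.

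PPP3CA, the catalytic subunit of the phosphatase calcineurin, made the longest domain (chr4:101936987-102271436 on hg19). Its body of 323 kb was covered over 275 kb in Ctrl, 1.32 kb in H1-10 OE, 1.43 kb in siCtrl and 1.21 kb in siE2F3. Only Ctrl was high, and the promoter stayed occupied in all 4 libraries, with 2001 bp of the 2 kb window covered in Ctrl and 1940 bp in H1-10 OE.

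SRRM4 was covered over 173 of 180 kb of body in Ctrl and over 0 kb in H1-10 OE, 0.265 kb in siCtrl and 0 in siE2F3. Here the promoter was lost as well: 2001 bp in Ctrl and 0 in the 3 other libraries. The H3K27me3 list of H1-10 OE, which marks Polycomb-silenced chromatin, covered 19505 bp of the gene with 1 kb to each side, and that of Ctrl covered 0. Those lists differ in length, with 18395 regions in H1-10 OE against 2540 in Ctrl, and met 17 and 6 of the 222 listed genes.

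Most other long genes named here fell into the same 2 forms. Body loss with the promoter kept was seen in GUCY1A2, a guanylate cyclase subunit (157 kb of a 330-kb body in Ctrl, 0 in H1-10 OE). It was also seen in NFIX, a transcription factor of the nuclear factor I family (99.1 and 0.432 kb), and in ZBTB16, a zinc finger repressor (92.6 and 0.776 kb). IQSEC2, an exchange factor for ARF GTPases, had 87.5 and 0.67 kb, and ARID1A, a subunit of the SWI/SNF remodelling complex, 84.5 and 1.75 kb. The mechanosensitive channel PIEZO1 went from 65.7 to 8.06 kb but was at 44.8 kb in siCtrl. FOLH1, the gene of prostate-specific membrane antigen, had 52.1 kb in Ctrl and 0 in the 3 other libraries. Its promoter was kept only in part, with 1356 bp in Ctrl, 444 bp in H1-10 OE, 0 in siCtrl and 284 bp in siE2F3. Loss at both promoter and body was seen in HGF (60.9 kb of body in Ctrl) and in MLPH, a melanosome transport linker (54.1 kb), each at 0 in the 3 others. FAM111B, a serine protease (17.4 kb), and PROM2, a membrane glycoprotein (8.11 kb), did likewise. AFF3, of the AF4 family, had 179 kb of a 594-kb body in Ctrl against 2.18 kb in H1-10 OE. It had no region at its entered start in either list, and so showed neither form.

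**Figure D2:**
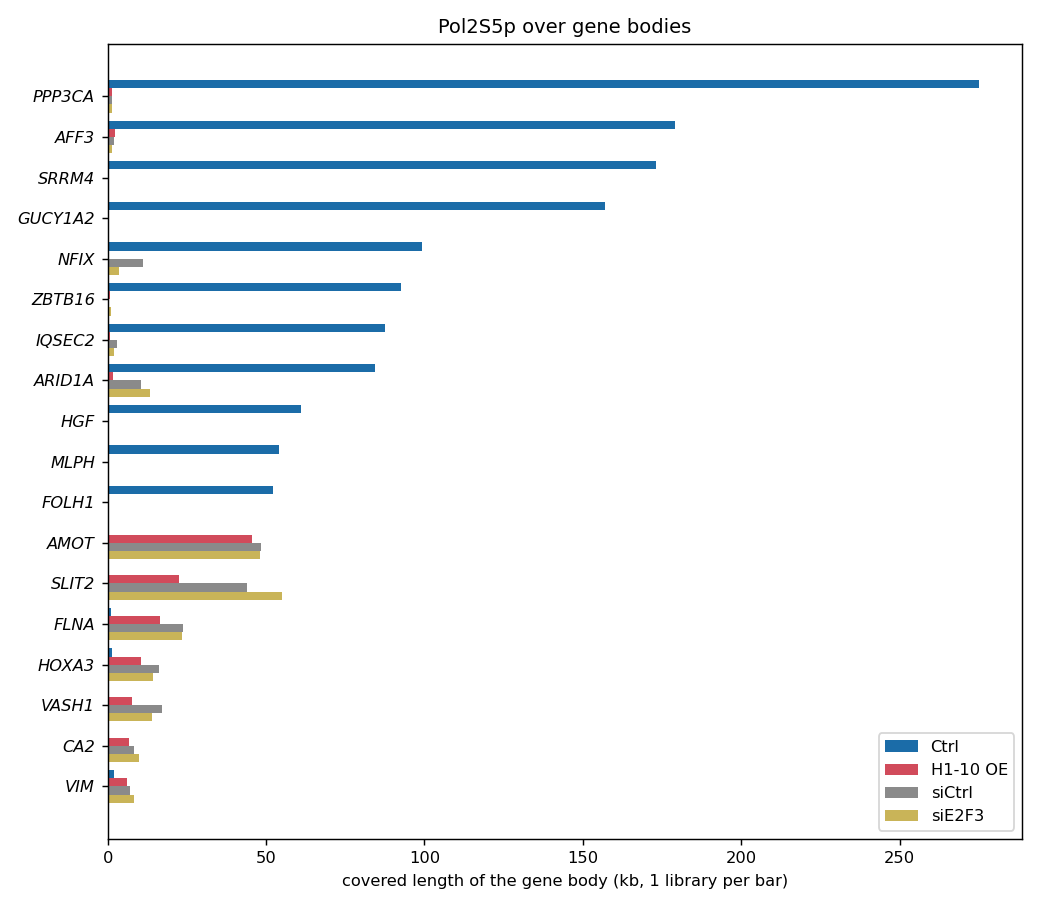
Covered length of the gene body (kb) for 11 genes lower and 7 genes higher in H1-10 OE, 1 bar per library. The upper 11 genes have 52.1 to 275 kb in Ctrl and short bars in the 3 other libraries, and the lower 7 have at most 2.05 kb in Ctrl and longer bars in all 3 others.

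At the androgen response and prostate luminal genes, 9 of 21 bodies were lower in H1-10 OE and 1 was higher, against 13.8% and 8.81% over all listed genes. Promoters were occupied in both lists in 10 of the 21, in Ctrl only in 5, in H1-10 OE only in 2 and in neither in 4. The median body was covered to 9.14% in Ctrl and 0% in H1-10 OE, beside 4.67% and 5.6% over all listed genes. The siCtrl and siE2F3 medians were 0.611% and 0%, although their summed bodies, given above, were longer than that of Ctrl. Most of that summed length lay in NDRG1 and CAMKK2. The E2F3 list of Ctrl had a region at 16 of the 21 promoters and that of H1-10 OE at 0, beside 160 and 36 over the 222 listed genes. The E2F3 lists held 22988 regions in Ctrl and 4296 in H1-10 OE.

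Among the transcription factors, HOXB13 lost its body (2.98 kb in Ctrl, 0 in H1-10 OE, 0.086 kb in siCtrl, 0.625 kb in siE2F3) and kept 1495 bp at the promoter. FOXA1, a pioneer factor, had 4.57 kb of body in Ctrl, 0.341 kb in H1-10 OE, 1.69 kb in siCtrl and 1.6 kb in siE2F3. GRHL2, an epithelial factor, had 1929 bp at the promoter in Ctrl and 0 in the 3 others. All 3 factors were highest in Ctrl at promoter and body alike.

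Among the kallikreins, KLK2 had 1283 bp at the promoter and 3.42 kb of body in Ctrl and no region in the 3 others. KLK3, which encodes prostate-specific antigen, had 2.25 kb of body in Ctrl and 0 in the 3 others. An 11.7-kb Ctrl region (chr19:51401256-51412936) covered most of the body of KLK4 but did not come within 1 kb of its start. That body had 3.33 kb in Ctrl, 0 in H1-10 OE, 0.632 kb in siCtrl and 0 in siE2F3. The KLK4 promoter had 132 bp in siCtrl and 0 in Ctrl, H1-10 OE and siE2F3. The H3K27me3 list of H1-10 OE had 314 bp at KLK2 and 387 bp at KLK3, and that of Ctrl, the shorter list, 0 at both.

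TMPRSS2, an androgen-driven serine protease, had 388 bp at the promoter in Ctrl and 0 in the 3 others. The epithelial adhesion gene CDH1 had 1370 bp at the promoter and 13 kb of body in Ctrl, and no region in H1-10 OE or siE2F3, with 295 bp at the promoter in siCtrl. EPCAM, another epithelial surface gene, had 822 bp at the promoter in Ctrl, 0 in H1-10 OE, 436 bp in siCtrl and 257 bp in siE2F3. The tight-junction gene CLDN4 lay under a 4.85-kb region of Ctrl (chr7:73244605-73249450), and its promoter had 1589 bp in Ctrl, 0 in H1-10 OE, 101 bp in siCtrl and 0 in siE2F3. The epithelial keratins were an exception: KRT8 had 1143 bp at the promoter in Ctrl and 1265 bp in H1-10 OE, and KRT18 1453 and 1218 bp. FKBP5, an androgen-induced chaperone partner, kept its promoter and went from 14.1 to 1.45 kb of body. NDRG1 was the 1 gene with a higher body, 0.537 kb in Ctrl against 6.16 kb in H1-10 OE, 43.2 kb in siCtrl and 43.1 kb in siE2F3. CAMKK2, a kinase of the AMPK pathway, had 0.96 kb in Ctrl, 1.64 kb in H1-10 OE, 31.1 kb in siCtrl and 22.8 kb in siE2F3. At both genes the siRNA libraries stood far above Ctrl.

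**Figure D3:**
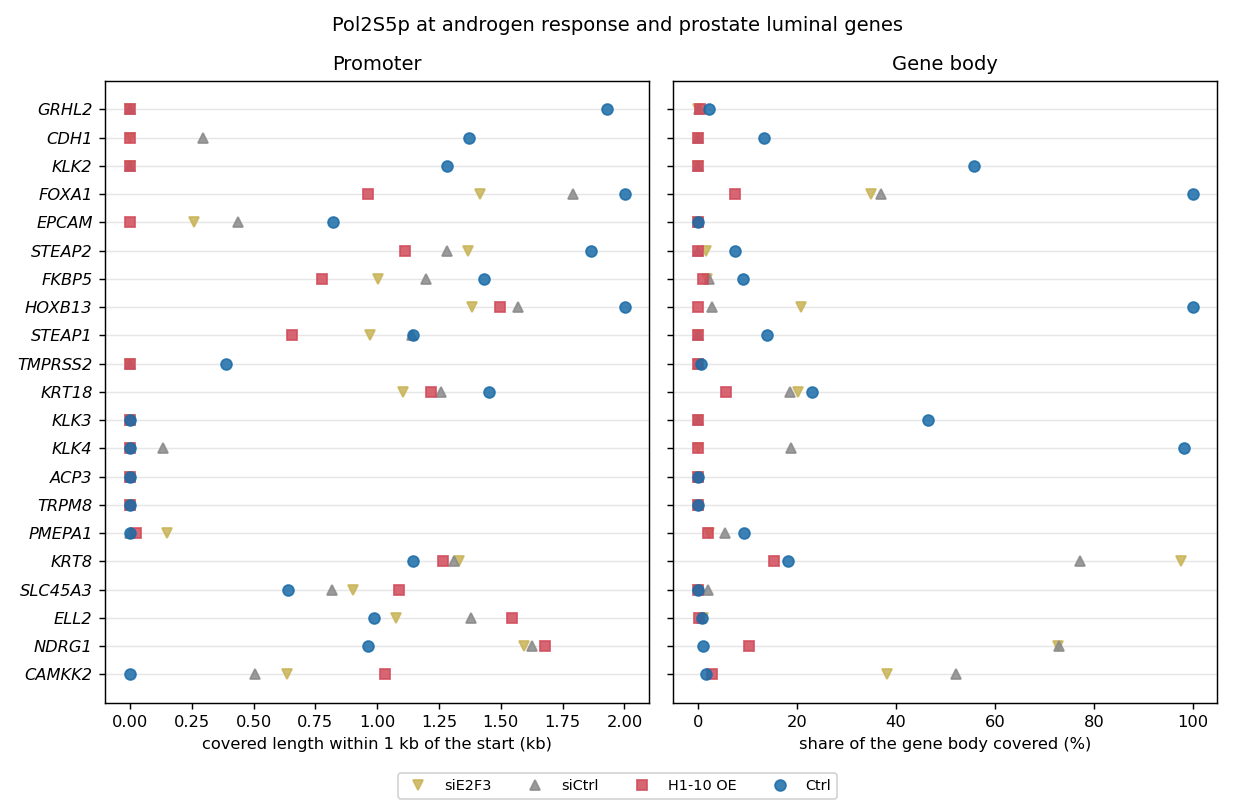
Covered length within 1 kb of the start (left, kb) and share of the gene body covered (right, %) for 21 androgen response and prostate luminal genes, 1 symbol per library, sorted by the promoter difference between H1-10 OE and Ctrl. FOXA1, HOXB13 and KLK4 reach over 95% of the body in Ctrl and under 8% in H1-10 OE.

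Gains in H1-10 OE were shorter. Those described next, from AMOT to VIM, were also covered in the siRNA libraries, unlike the region at HBB described further on. AMOT, a scaffold of the Hippo pathway, made the longest (chrX:112014239-112085429, 71.2 kb). Its body had 0 kb in Ctrl, 45.7 kb in H1-10 OE, 48.4 kb in siCtrl and 48.1 kb in siE2F3, while its promoter was occupied in all 4, with 1389 bp in Ctrl against 2001 bp in H1-10 OE. Ctrl alone was low along the gene.

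The second was the MIR221 and MIR222 locus, which encodes a microRNA pair on the X chromosome. Covered length in its domain (chrX:45601392-45630752) was 0 kb in Ctrl, 27.5 kb in H1-10 OE, 27 kb in siCtrl and 26 kb in siE2F3. Within it, the most significant region, 6.91 kb long, spans both hairpins. Their mature 3p sequences from RefSeq are shown because both come from this gained stretch and share the seed, bases 2 to 8, in capitals.
hsa-miR-221-3p: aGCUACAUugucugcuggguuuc
hsa-miR-222-3p: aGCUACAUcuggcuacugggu

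FOXC1, a forkhead factor of mesoderm and neural crest, had 468 bp at the promoter in Ctrl and 2001 bp in H1-10 OE, siCtrl and siE2F3, and its domain (chr6:1604480-1630949) had 0.468 kb in Ctrl against 21.3 kb in H1-10 OE. SLIT2, a secreted guidance ligand of ROBO receptors, had 364 bp at the promoter in Ctrl and 2001 bp in the 3 others. Its body of 365 kb went from 0 to 22.6 kb, siCtrl standing at 43.9 kb and siE2F3 at 55.1 kb. IRS4, an adaptor of insulin receptor signalling, had no region in Ctrl and 2001 bp at the promoter in each of the 3 others. FLNA, an actin cross-linker, went from 1.19 to 16.4 kb of body, while its promoter went the other way, from 1605 to 722 bp. The body of CA2, a carbonic anhydrase, went from 0 to 6.81 kb, and that of VASH1, a tubulin carboxypeptidase, from 0 to 7.76 kb. GATA6, a zinc finger factor of endoderm, went from 0 to 5.67 kb, and BHLHE40, a repressor of the clock, from 0 to 2.9 kb. VIM, the mesenchymal intermediate filament gene, had 0 bp at its entered promoter and 2.05 kb of body in Ctrl, and 1754 bp and 6.15 kb in H1-10 OE. The Ctrl length at VIM was a single region (chr10:17271478-17273524, fold enrichment 15.9). The longest H1-10 OE region there (chr10:17269505-17274605) spanned it, so the 0 bp depends on where the promoter window ends. In each gene of this paragraph the bodies of siCtrl and siE2F3 were also covered further than in Ctrl.

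**Figure D4:**
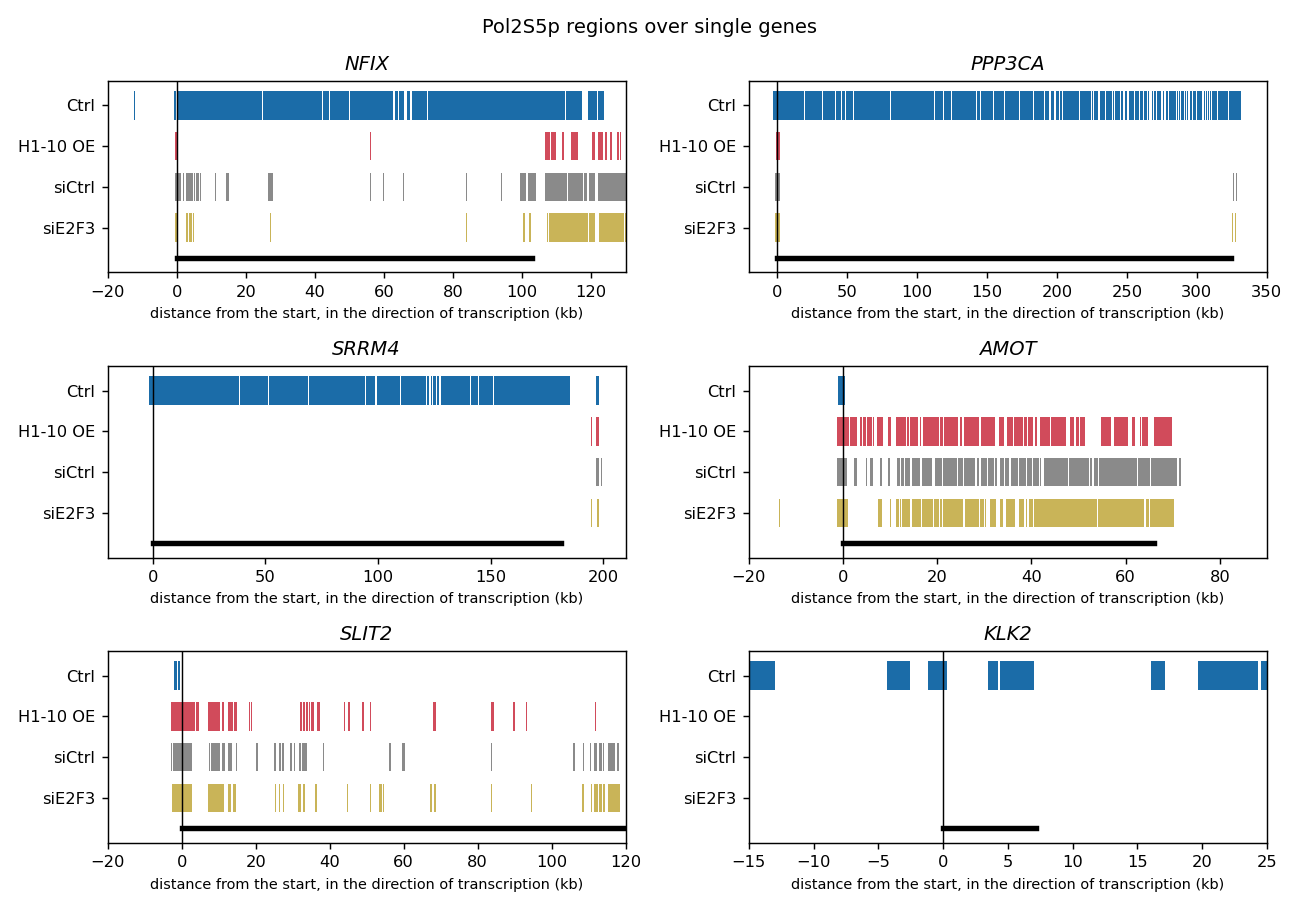
Regions of the 4 Pol2S5p lists along 6 genes, by distance from the entered start in the direction of transcription (kb); colored blocks are regions, the black bar below is the gene and the vertical line its start. Within the gene, NFIX, PPP3CA and SRRM4 are filled in Ctrl and mostly empty in the 3 other libraries, AMOT and SLIT2 show the reverse, and KLK2 has blocks in Ctrl alone.

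The strongest regions of one list with no region of the other within 5 kb were ranked by the authors' significance within that list. Of the first 10 of Ctrl, 3 were also in siCtrl and 1 in siE2F3, and of the first 10 of H1-10 OE, 9 and 8. Ctrl was led by a region at chr1:147993657-147994893, for which no gene was entered, and held the histone genes H2BC3 and H3C3 (chr6:26042522-26046829) at rank 3. In H1-10 OE the first was at HBB, the beta-globin gene (chr11:5245957-5247489). Its fold enrichment was 220 in that list, it ended 812 bp short of the gene's start, toward the 3' part, and no other list of the 8 read had a region there. The other region at the gene (chr11:5247719-5248008) ended 293 bp short of the start. KCTD12 (chr13:77458402-77461299) was next, with 0 bp at its promoter in Ctrl, 1760 bp in H1-10 OE, 2001 bp in siCtrl and 1838 bp in siE2F3. TIMP2, an inhibitor of metalloproteinases, HOXD13, SHISA2, which dampens WNT and FGF signalling, CA2 and ACTN2, a sarcomere actinin, also stood among these 10.

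Of the regions reported here, the 10 longest of Ctrl that met none of H1-10 OE measured 14.9 to 40.2 kb and lay in SRRM4, HGF, ALDH3A2, a fatty aldehyde dehydrogenase, NFIX, PPP3CA and CHPT1, a choline phosphotransferase, with 1 at chr9:137699187-137716634. The 10 longest of H1-10 OE that met none of Ctrl measured 4.5 to 8.54 kb, and 10 of 10 were in siCtrl and in siE2F3, against 4 and 3 for Ctrl.

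HOX genes, the homeobox genes that set position along the body axis, formed the list with the most promoters in H1-10 OE only: 13 of 39, against 12.2% over all listed genes, with 1 in Ctrl only, 20 in both and 5 in neither. All 13 were occupied in both siCtrl and siE2F3. In the HOXD cluster 0 of 9 promoters were occupied in Ctrl and 5 in H1-10 OE, those of HOXD8, HOXD9, HOXD10, HOXD11 and HOXD13. HOXD11 had 0 bp in Ctrl and 2001 bp in each of the 3 others, and HOXD13 0 bp in Ctrl, 1636 bp in H1-10 OE and 2001 bp in siCtrl and siE2F3. In the HOXB cluster 4 of 9 were occupied in H1-10 OE only, HOXB2, HOXB3, HOXB5 and HOXB8. In the HOXC cluster 3 of 9 were, HOXC6, HOXC8 and HOXC11, and HOXC12 was the 1 promoter of Ctrl only, with 810 bp. The HOXA cluster had 10 of 11 occupied in both and HOXA3 in H1-10 OE only, with a body of 1.32 kb in Ctrl against 10.6 kb in H1-10 OE. HOXB13, a prostate gene at some distance from the other HOXB genes, went the other way, as given above.

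**Figure D5:**
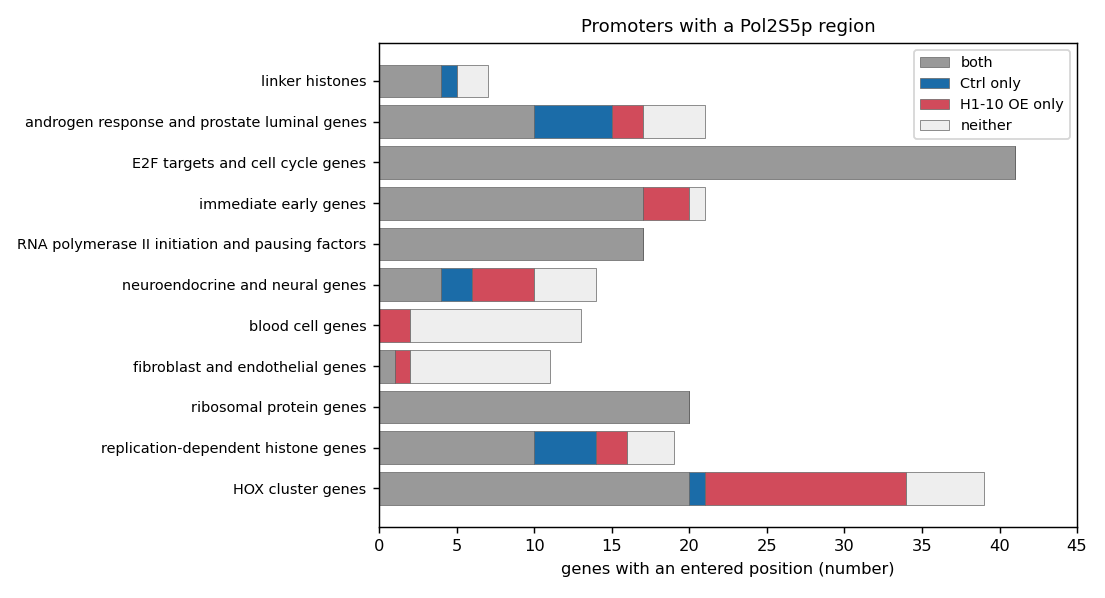
Number of genes per list whose promoter had a Pol2S5p region in both lists, in Ctrl only, in H1-10 OE only or in neither (horizontal axis, genes). Blue is most frequent in the androgen response and the histone lists, with 5 and 4 genes, and red in the HOX list, with 13.

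E2F targets and cell cycle genes kept every promoter: 41 of 41 were occupied in both lists, with median covered lengths of 1460 bp in Ctrl against 1420 bp in H1-10 OE. The E2F3 list of Ctrl had a region at all 41 promoters and that of H1-10 OE at 29, beside 160 and 36 of all 222 listed genes. Of the 41 bodies 9 were lower and 6 higher in H1-10 OE, against 13.8% and 8.81% over all listed genes. MKI67, a coat protein of mitotic chromosomes, went from 9.02 to 2.32 kb, E2F2 from 12.2 to 1.58 kb and MCM5, a subunit of the replicative helicase, from 9.25 to 3.19 kb. UHRF1, which guides maintenance DNA methylation, went from 0.283 to 9.47 kb, and E2F3 itself from 1.84 to 5.3 kb. Summed over the 41 bodies, covered length was 137 kb in Ctrl against 111 kb in H1-10 OE, beside 474 kb in siCtrl and 461 kb in siE2F3. With siCtrl and siE2F3 cut to as many peaks as H1-10 OE the sums were 378 and 361 kb. All 9 genes that were lower in H1-10 OE except CCNE2 were above Ctrl in siCtrl.

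Genes used by most cells kept their promoters. Of 86 ribosomal protein genes 20 had an entered position, 20 of 20 promoters were occupied in both lists, and the median body was covered to 100% in Ctrl and 96.3% in H1-10 OE. Of the RNA polymerase II initiation and pausing factors, 17 of 17 with an entered position were occupied in both, including POLR2A, the largest subunit, with 2001 bp in Ctrl against 1855 bp in H1-10 OE.

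H1-10 itself, the overexpressed gene, had 1681 bp at the promoter in Ctrl and 2001 bp in the 3 others, under a region of 4.57 kb in Ctrl against 4.51 kb in H1-10 OE. An overexpression construct need not use this promoter, so these values check no label. Of the 7 linker histone genes with an entered position, 4 were occupied in both lists. H1-5 was in Ctrl only, with 1325 bp and 0 in the 3 others. Of 19 replication-dependent histone genes, 10 were occupied in both, 4 only in Ctrl and 2 only in H1-10 OE, against 5.86% and 12.2% over all listed genes. H2BC3 and H3C3, under the same Ctrl region, had 2001 bp each in Ctrl and 0 in the 3 others, and H2BC6 had 1217 bp and 0. H3C7 was the reverse, with 0 bp in Ctrl against 1218 bp in H1-10 OE, 1193 bp in siCtrl and 1210 bp in siE2F3. H2BC9, also in H1-10 OE only, had 217 bp there, at the same fold enrichment as H3C7 (14.6). H3C6, in Ctrl but not in H1-10 OE, had 1268 bp in Ctrl, 1277 bp in siCtrl and 1068 bp in siE2F3. Where promoters share a region, their counts are not independent. Histone genes are near-identical copies, so placement of reads between neighbours is uncertain.

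Immediate early genes, which respond to stimuli without new protein, had 17 of 21 promoters in both lists and FOSL1, EGR2 and EGR3 in H1-10 OE only, 3 of 21 against 12.2% over all listed genes. EGR1, a zinc finger factor, kept its promoter and lost its body, 2.82 kb in Ctrl and 0 in H1-10 OE, with 1.76 kb in siCtrl. MYC had 2001 and 1246 bp at the promoter and 4.37 and 3.99 kb of body. Neuroendocrine and neural genes split: CHGA and CHGB, granins of secretory vesicles, were in Ctrl only, with 417 and 891 bp, and INSM1, NCAM1, SOX2 and DLL3 in H1-10 OE only, with 897, 679, 880 and 364 bp. These are 2 and 4 of 14 genes, against 5.86% and 12.2% over all listed genes. The last 4 were also occupied in siCtrl and siE2F3, and the granins in neither. Blood cell genes were unoccupied in Ctrl in 13 of 13 cases, with HBB and HBA1 met in H1-10 OE, and HBA1 and HBA2 are near-identical copies. Of the fibroblast and endothelial genes, 9 of 11 were occupied in neither list.

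By chromosome, the ratio of covered length in H1-10 OE to Ctrl ran from 0.747 on chromosome 4 to 1.11 on chromosomes 3 and 21. On chromosome X, 28.2% of Ctrl regions were in Ctrl only and 51.3% of H1-10 OE regions in H1-10 OE only, the lowest and the highest share of the chromosomes counted (1 to 22 and X). Chromosome X regions numbered 879 in Ctrl and 1315 in H1-10 OE.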

How the data were processed

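Pol2S5p ChIP-seq peak lists of 22Rv1 (1 library per group) were compared. The submitters' processing notes name the tools FastQC, fastp and Bowtie and the build hg19, without versions. The peak caller and its threshold were not given in the sources used here. Each deposited list gives a score, a fold enrichment (a ratio over the caller's own background), -log10 p and -log10 q values and a summit offset (another deposited value, in bp from the peak start). These served only to rank or filter peaks within a list. Coordinates are 1-based. Overlaps needed 1 bp, covered length was summed per 50-kb window, promoter and gene body, and shares carry 95% Wilson intervals. With 1 library per group no test was made. Members and lists were chosen with earlier results of these data known. Peak names of siCtrl and siE2F3 carry the tag H1FXOE in all rows and a folder label other than that of Ctrl and H1-10 OE, so the authors may have processed these pairs differently.

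No hg19 annotation was used. Spans of 278 genes were entered by hand from general knowledge, not read from a file, in place of the planned description by position alone. Partial lists (17 of 30 polymerase factors, 20 of 86 ribosomal protein, 19 of 63 histone genes) hold the genes whose position was known. All 278 symbols and chromosomes matched RefSeq GRCh38.p14, 254 of 255 neighbouring pairs had the same order and 225 lengths were within 10%. The starts and ends were also set against those of that table, and 1 gene (PECAM1) was dropped for disagreeing, so the spans are not independent of it; no coordinate was converted. Genes were named by rank of significance, length and change in covered length, and from the lists; those outside the lists were entered after their values were seen. Some listed genes and some regions, including all of chromosomes Y and M, are not reported here. The overlap code gave the covered length of bedtools 2.31.1 for all 35493 Ctrl regions. Tools were Python 3.11.15 with pandas 2.3.3, numpy 2.4.6 and scipy 1.17.1, and matplotlib 3.10.9 for plots. Alternatives were a stricter threshold (-log10 q of 5 or more), lists cut to equal length by -log10 p, 50% reciprocal overlap, merging within 1 kb, other promoter widths, 4-fold, genes that overlap no other gene (by RefSeq) and the siRNA lists in place of H1-10 OE. Lists cut to equal numbers of siRNA peaks, and genes with lengths within 10% of RefSeq, were added after seeing the data.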

Additional observations from a re-analysis of the deposited data

How the results depend on the processing

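With a -log10 q of at least 5, regions of one list only numbered 6801 for Ctrl and 7901 for H1-10 OE; with 50% reciprocal overlap 22040 and 27173; merging within 1 kb left 8498 for Ctrl. Listed genes with a lower or higher body, 22 and 14 as reported, were 11 and 6 at 4-fold, 9 and 5 among the 83 genes that overlap no other gene, where fewer genes were counted, 8 and 53 with siCtrl in place of H1-10 OE, and 9 and 41 with as many of the strongest siCtrl peaks as in H1-10 OE (the cause was not tested). The other alternatives kept these counts within 1.5 times, as all did for promoters (10 to 15 in Ctrl only, 19 to 29 in H1-10 OE only), covered length and presence in the siRNA lists. Of the 81 bodies of listed and added genes past the change, whose comparisons all share Ctrl, those that turned, in kb above Ctrl with siCtrl and siE2F3, were KDM5C by 14.8 and 16.3, E2F2 by 4.1 and 3.1, E2F8 by 2.56 and 0.8, CCNB1 by 5.42 and 5.69, MCM5 by 11.9 and 12.8, RRM2 by 1.08 and 1.09, BRCA1 by 10.8 and 11.6, TOP2A by 8.36 and 10.9 and MKI67 by 5.48 and 5.58; ENO2 turned in siCtrl (1.55) and CCNH in siE2F3 (1.65). No paired analysis was possible because each group has 1 library. Depth is unknown, so covered length cannot be scaled to it.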
